A study of Homo sapiens with 48 samples.

Results

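The leukocyte integrins and sialomucins described here are 9 genes whose products hold lymphocytes to vessel walls, stroma and other cells. They were chosen by name as ITGAL, ITGB2, ITGA4, ITGB1, ITGB7, ICAM3, SPN, SELPLG and CD44, and all 9 were found in the files of each of 3 experiments, among 60558 gene rows in the widest. U2932, a cell line from a human diffuse large B-cell lymphoma, was profiled by RNA sequencing in 48 libraries, 3 per group for 16 groups. In the first experiment, called coculture here, KLHL6-KO and KLHL6 WT cells were sampled at 0, 3, 8 and 12 h with OP9-DLL1, mouse stromal cells made to present the NOTCH ligand DLL1 (24 libraries). In the knockout experiment, the tumours were labelled KLHL6-KO (KLHL6-/- NOTCH2+/+), NOTCH2-KO (KLHL6+/+ NOTCH2-/-), DKO (KLHL6-/- NOTCH2-/-) or WT (KLHL6+/+ NOTCH2+/+), 12 libraries in all. In the mutant experiment, the tumours came from cells stably expressing NOTCH2(S2156A), NOTCH2(R2400*), NOTCH2(Q2140*) or NOTCH2(WT), also 12 libraries. Every tumour, controls included, was a xenograft in an NSG mouse, which has no T, B or NK cells of its own but keeps stroma and macrophages, and every host had received CHOP (cyclophosphamide, doxorubicin, vincristine and prednisone). Whether a knockout line is 1 clone or several, and which promoter drives the NOTCH2 variants, is not given in the sources used here.

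Integrins are pairs of an alpha and a beta chain. ITGAL and ITGB2 encode the chains of LFA-1, which binds ICAM proteins on other cells. ITGA4 pairs with ITGB1 to form VLA-4, the receptor for VCAM1 and fibronectin, or with ITGB7 to form the gut-homing receptor for MADCAM1. Sialomucins such as CD43 (SPN) and PSGL-1 (SELPLG) are long, heavily sialylated proteins: PSGL-1 is the main selectin ligand of leukocytes, and CD43 is a large, negatively charged coat protein. ICAM3 is a ligand of LFA-1 that leukocytes carry themselves, and CD44 is the receptor for hyaluronan and a marker of activated lymphocytes. KLHL6 is a substrate adaptor of a ubiquitin ligase, and NOTCH2 is the receptor that DLL1 engages.

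In GRCh38 with GENCODE 29, ITGAL spans 30472658 to 30523185 and SPN 29662979 to 29670876, both on the plus strand of chromosome 16. ITGB2 spans 44885953 to 44931989 on the minus strand of chromosome 21. ITGA4 spans 181457202 to 181536187 on the plus strand of chromosome 2, and ITGB1 spans 32900319 to 33005792 on the minus strand of chromosome 10. On chromosome 12, both on the minus strand, ITGB7 spans 53191318 to 53207307 and SELPLG 108622277 to 108633959. ICAM3 spans 10333776 to 10339823 on the minus strand of chromosome 19, and CD44 spans 35138870 to 35232402 on the plus strand of chromosome 11. In GENCODE, 42.1% of the exon bases of ITGB7 are also exon of ZNF740 on the other strand, and 71.2% of those of ICAM3 lie opposite the antisense gene AC114271.1. The library kit keeps the strand, but whether the authors' counting used it is not given in the sources used here, so the values of ITGB7 and ICAM3 may hold reads of these neighbours.

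Promoters of ITGA4 and ITGB7 are shown because these genes rose together in the Q2140* tumours. RefSeq promoter entries (GRCh38.p14) were found for 5 of the 9 genes, and the 250 bases before the RefSeq start are printed 5′ to 3′ on each gene's own strand, with motif matches in capitals. The ITGA4 sequence is chr2:181457136-181457385 on the plus strand, and the ITGB7 sequence is chr12:53207252-53207501 on the minus strand.
ITGA4 promoter: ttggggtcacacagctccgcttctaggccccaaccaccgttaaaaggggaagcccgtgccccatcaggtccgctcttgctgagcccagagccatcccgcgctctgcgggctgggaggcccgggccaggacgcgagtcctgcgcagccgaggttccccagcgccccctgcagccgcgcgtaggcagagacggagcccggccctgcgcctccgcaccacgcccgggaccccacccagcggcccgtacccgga
ITGB7 promoter: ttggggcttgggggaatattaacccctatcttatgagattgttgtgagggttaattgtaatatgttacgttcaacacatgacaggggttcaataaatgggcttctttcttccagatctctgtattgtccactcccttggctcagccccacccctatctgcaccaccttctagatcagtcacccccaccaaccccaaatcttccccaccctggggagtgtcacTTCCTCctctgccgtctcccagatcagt
Both strands were searched for TGGGAA, the core bound by the NOTCH partner RBPJ, for GAGGAA, an ETS core bound by PU.1, and for GGGCGG, the GC box of SP1. These letters are held by 20.8%, 23.6% and 42.6% of 35116 promoters of this length, in that order. The ITGB7 window holds 1 match, GAGGAA on the strand opposite the one printed, 28 bases before the start, where the printed strand reads TTCCTC in capitals. None of the 3 motifs is in the ITGA4 window. Of the other genes with an entry, ICAM3 holds all 3 motifs, ITGB1 holds GAGGAA and GGGCGG, and CD44 holds GGGCGG. The 5 genes have 8 entries in all, with 1 each for ITGA4, ITGB7 and CD44. For ICAM3 and ITGB1 matches were pooled over a gene's entries, so the shares per promoter above are not directly comparable. The GENCODE extents of ITGA4 and ITGB7 reach into the printed windows. A match is a description of letters and says nothing of binding.

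Levels are normalised counts, in which the authors scaled each library's gene counts by its size factor, and means are given ± SD with n = 3. Changes are on the log2 scale ± SE and were tested in limma, with p adjusted by the Benjamini-Hochberg method over all genes tested in an experiment, and a gene is called at an adjusted p under 0.05. Depth was 11.1 to 17.4 M reads (mega-reads) in coculture (median 12.5), 3.71 to 15.2 in the knockout tumours (median 13.7, lowest in DKO replicate 3) and 12.7 to 17.1 in the mutant tumours (median 14). The 6 B-cell markers, among them MS4A1, CD79A and PAX5, summed to at least 37770 in every library. KLHL6 RNA was lower in the KLHL6-KO cells of the coculture at every time, with log2 changes of -1.17, -0.63, -1.15 and -1.12 at 0, 3, 8 and 12 h. In the tumours the labels and the RNA did not all match. Those labelled KLHL6-KO held more KLHL6 RNA than those labelled WT (0.59 ± 0.15, adjusted p = 0.013), and those labelled DKO did not differ by the test (0.06 ± 0.15, adjusted p = 0.83). Those labelled NOTCH2-KO held less NOTCH2 RNA than those labelled WT (-0.97 ± 0.21, adjusted p = 0.0030). Those labelled DKO held NOTCH2 at 530.5 to 612.1, within the 420.2 to 908.6 of those labelled WT. In those labelled KLHL6-KO NOTCH2 was at 447.0 to 492.0. Among the knockout tumours, WT replicate 1 stood apart from its group, with a median absolute log2 difference of 0.290 from the other replicates, against at most 0.186 in any other tumour library of that experiment. Called differences of the 9 genes from WT are therefore also given without it.

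Per kilobase of exon, ITGAL was the most abundant of the 9 transcripts in coculture, with a median of 555 normalised counts per kb over 24 libraries. ITGB7 (185), ICAM3 (180.0), ITGB1 (179.6) and CD44 (151) followed, then ITGA4 (89.7) and SPN (20.4). The 2 lowest were ITGB2 (6.33) and SELPLG (4.90), so the beta chain of LFA-1 was far below its alpha chain in these cells. In both tumour experiments ITGB1 and CD44 led, with medians of 206 and 128 per kb in the knockout tumours and 288 and 224 per kb in the mutant tumours, and SELPLG was last (9.52 and 7.77). The experiments were normalised separately, so the order within each is comparable and the levels across them are not.

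Before coculture KLHL6-KO cells held 2.94-fold less SPN and 2.56-fold less ITGB2 RNA than WT cells, and both genes stayed lower at every time. CD44 did not differ by the test at 0 h and was then higher in KLHL6-KO cells at 3, 8 and 12 h. At 0 h KLHL6-KO cells had 0 of the 9 genes called higher (13.7% of all genes) and 4 lower (12.5%), where 26.1% of all genes were called, and 5 did not overlap between the groups (37.8% of all genes). At 3 h they had 1 of the 9 genes called higher (3.82% of all genes) and 2 lower (4%), where 7.82% of all genes were called, and 6 did not overlap between the groups (30.3% of all genes). ITGB2 and SPN were the 2 lower genes at 3 h, and CD44 the higher one. At 8 h there were 1 of the 9 genes called higher (2.02% of all genes) and 2 lower (2.32%), where 4.34% of all genes were called, and 3 did not overlap between the groups (19.7% of all genes), for the same 3 genes. At 12 h there were 1 of the 9 genes called higher (1.4% of all genes) and 4 lower (2%), where 3.39% of all genes were called, and 5 did not overlap between the groups (18.7% of all genes). The median log2 change of the 9 genes was -0.17 at 0 h, -0.11 at 3 h, -0.0043 at 8 h and -0.013 at 12 h, against medians over all genes between -0.0077 and 0.00069.

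For LFA-1, the beta chain carried the difference. ITGB2 was at 37.6, 38.2 and 43.0 in KLHL6-KO cells at 0 h, against 134, 96.7 and 87.7 in WT cells. At 3 h it was at 19.7, 32.9 and 25.7 in KLHL6-KO cells, against 76.9, 73.6 and 78.4 in WT cells. At each time all 3 KLHL6-KO libraries were below all 3 WT libraries. At 8 h ITGB2 was at 17.2, 14.5 and 19.3 in KLHL6-KO cells, against 46.2, 43.0 and 46.4 in WT cells, and at 12 h at 21.9, 21.9 and 29.9 in KLHL6-KO cells, against 58.0, 59.7 and 55.7 in WT cells. The change was -1.36 ± 0.18 (adjusted p = 1.2e-06) at 0 h, -1.51 ± 0.18 (adjusted p = 2.9e-07) at 3 h, -1.32 ± 0.18 (adjusted p = 8.6e-06) at 8 h and -1.18 ± 0.18 (adjusted p = 4.4e-05) at 12 h, 2.27- to 2.84-fold lower. The genotype by time test, which asks whether the change over time differed between genotypes, did not call ITGB2 (adjusted p = 0.79).

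ITGAL, the alpha chain, was called between the genotypes only at 12 h. It was at 1878, 1849.9 and 1714 in KLHL6-KO cells at 12 h, against 2256, 2144 and 2320.3 in WT cells. The 2 groups did not overlap, and the change was -0.30 ± 0.06 (adjusted p = 0.00097). At 0 h ITGAL was at 4661 ± 111 in KLHL6-KO cells and 4342 ± 110.4 in WT cells (0.10 ± 0.06, adjusted p = 0.20). It was at 4746 ± 121 in KLHL6-KO cells and 5169 ± 202 in WT cells at 3 h (-0.12 ± 0.06, adjusted p = 0.21) and was not called then or at 8 h (0.04 ± 0.06, adjusted p = 0.81). All KLHL6-KO libraries were above all WT libraries at 0 h and below all of them at 3 h, and the groups overlapped at 8 h. The ratio of ITGAL to ITGB2 per kb was higher in KLHL6-KO cells at each time. It was 124 ± 9.07 in KLHL6-KO cells at 0 h, against 44.3 ± 8.28 in WT cells. At 12 h it was 79.5 ± 16.7 in KLHL6-KO cells, against 40.8 ± 3.03 in WT cells. The groups did not overlap at either time, and the ratio holds no data beyond the levels of the 2 genes.

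The alpha 4 integrin chains differed little between genotypes. ITGB1 was at 1333, 1104 and 1041 in KLHL6-KO cells at 0 h, against 1648, 1554 and 1238 in WT cells. The groups overlapped, since the highest KLHL6-KO library exceeded the lowest WT library, and the change was -0.35 ± 0.10 (adjusted p = 0.014). Leaving out WT 0 h replicate 1, the highest, ended the call (-0.27, adjusted p = 0.0925), as did WT 0 h replicate 2 (adjusted p = 0.0688) or KLHL6-KO 0 h replicate 2 or 3 (adjusted p = 0.0586 and 0.0815). ITGA4 was at 649.9 ± 47.5 in KLHL6-KO cells at 0 h and 755 ± 88.9 in WT cells, a change of -0.21 ± 0.08 that lay at the threshold and was lost when any 1 of 17 libraries was left out. Neither chain was called at a later time. At 3 h, though, every KLHL6-KO library of ITGA4 (683 to 759) was above every WT library (608 to 634), opposite in direction to the 0 h change.

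ITGB7 was lower in KLHL6-KO cells at 12 h. It was at 626, 628 and 576 in KLHL6-KO cells, against 781, 663 and 742 in WT cells, and no library of one group reached the other (-0.25 ± 0.06, adjusted p = 0.014). The call was lost without WT 12 h replicate 1 (-0.20, adjusted p = 0.121), WT 12 h replicate 3 (adjusted p = 0.0702) or KLHL6-KO 12 h replicate 3 (adjusted p = 0.127), and in a fit on only the pair of groups compared (adjusted p = 0.0736). ZNF740, whose exons overlap those of ITGB7, was lower by a like amount at 12 h (500.2 ± 12.3 in KLHL6-KO cells and 610.4 ± 50.3 in WT cells, -0.28 ± 0.07, adjusted p = 0.013). Its part in the ITGB7 value was not tested. At 0, 3 and 8 h ITGB7 was not called. At 3 h all KLHL6-KO libraries (869 to 914) were nonetheless below all WT libraries (983 to 1033), and leaving out 1 library gave a call (adjusted p = 0.0491). At 0 h all KLHL6-KO libraries (1056 to 1106) were just above all WT libraries (1032 to 1054).

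**Figure D1:**
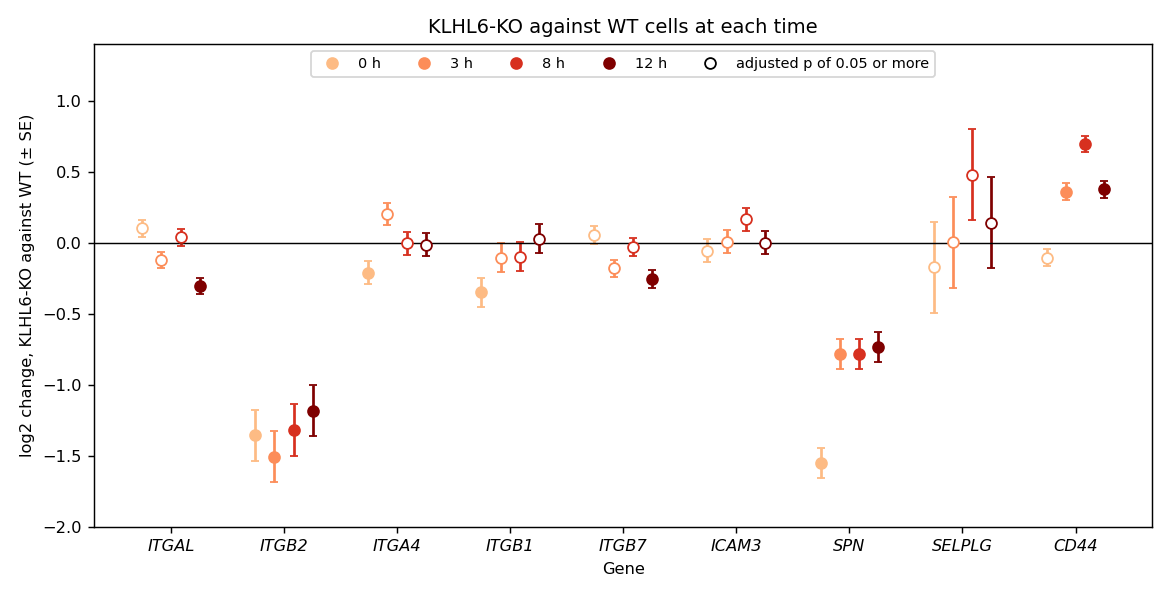
Log2 change (± SE) of each gene in KLHL6-KO against WT cells at 0, 3, 8 and 12 h of coculture, from limma with n = 3 libraries a group. Filled points have an adjusted p under 0.05, and ITGB2 and SPN are the 2 genes below 0 and filled at all 4 times, while CD44 is filled above 0 at 3, 8 and 12 h.

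SPN showed the largest difference of the 9 genes at 0 h. It was at 125, 116 and 139 in KLHL6-KO cells at 0 h, against 393, 397 and 335 in WT cells, and every KLHL6-KO library was far below every WT library. The change was -1.55 ± 0.11 (adjusted p = 1.3e-12), 2.94-fold lower. At 3 h SPN was at 74.3, 85.1 and 86.2 in KLHL6-KO cells, against 136, 150.4 and 139.8 in WT cells. At 8 h it was at 102, 113 and 86.5 in KLHL6-KO cells, against 176, 167 and 178 in WT cells. At 12 h it was at 163, 152 and 176 in KLHL6-KO cells, against 289, 252 and 277 in WT cells. The change was smaller than at 0 h but still called, -0.78 ± 0.11 (adjusted p = 3e-06) at 3 h, -0.79 ± 0.11 (adjusted p = 7.6e-06) at 8 h and -0.73 ± 0.11 (adjusted p = 1.9e-05) at 12 h, and no library of one genotype reached the other at any time.

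SELPLG and ICAM3, a selectin ligand and an integrin ligand, were not called between genotypes at any time. SELPLG lay between 4.50 and 21.0 normalised counts in all 24 libraries, and the SE of its log2 change, 0.32, was the widest of the 9 genes. At 0 h SELPLG was at 13.7 ± 2.51 in KLHL6-KO cells and 15.8 ± 4.49 in WT cells. ICAM3 was at 593 ± 12 in KLHL6-KO cells and 616 ± 20.6 in WT cells at 0 h (-0.05 ± 0.08, adjusted p = 0.68), and its largest difference was at 8 h (0.17 ± 0.08, adjusted p = 0.30).

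CD44 went the other way from SPN and ITGB2. At 0 h it was at 1339, 1314 and 1281 in KLHL6-KO cells, against 1432, 1456 and 1346 in WT cells (-0.11 ± 0.06, adjusted p = 0.20), with the KLHL6-KO libraries just below the WT libraries. At 3 h it was at 1982, 2013 and 2028 in KLHL6-KO cells, against 1529, 1573 and 1593 in WT cells. From 3 h on every KLHL6-KO library was above every WT library. At 8 h CD44 was at 1631, 1708 and 1825 in KLHL6-KO cells, against 1096, 1067 and 1021 in WT cells, and at 12 h at 1740.1, 1676 and 1793 in KLHL6-KO cells, against 1277, 1485 and 1257 in WT cells. The change was 0.36 ± 0.06 (adjusted p = 9.1e-05) at 3 h, 0.70 ± 0.06 (adjusted p = 6e-10) at 8 h and 0.38 ± 0.06 (adjusted p = 6.4e-05) at 12 h.

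Stroma marker sums were higher at later times and, at 0 and 3 h, lower in KLHL6-KO cells. The 17 stroma markers, among them COL1A1, SPARC and VIM, summed to 172.6 to 186.9 in KLHL6-KO cells and 238.4 to 301.5 in WT cells at 0 h, when COL1A2, COL6A2, PDGFRA, POSTN and THY1 were at 0 in all libraries of both genotypes. At 3 h the sums were 294.3 to 366.1 in KLHL6-KO cells and 408.7 to 442.8 in WT cells, and at 8 h 454.7 to 516.6 in KLHL6-KO cells and 432.5 to 452.1 in WT cells. At 12 h they were 467.2 to 516.3 in KLHL6-KO cells and 444.8 to 922.0 in WT cells, the highest being WT replicate 1. Macrophage, T and NK cell and endothelial markers summed to at most 18.3, 19.1 and 11.3 in any coculture library. The part of the stroma in the members' levels was not tested. At 0 h, before coculture, the stroma sums are not read as an amount of stroma. At later times, fewer cells of a type and less RNA per cell cannot be told apart in bulk RNA.

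Over the hours on OP9-DLL1, LFA-1 and ITGB7 RNA fell in both genotypes, while CD44 and SPN followed different courses in each. In KLHL6-KO cells 3 h against 0 h gave 1 of the 9 genes called higher (19.5% of all genes) and 4 lower (19.6%), where 39.1% of all genes were called, and 5 did not overlap between the groups (51.2% of all genes). At 8 h the counts in KLHL6-KO cells were 1 of the 9 genes called higher (19.2% of all genes) and 5 lower (18.6%), where 37.8% of all genes were called, and 6 did not overlap between the groups (49.4% of all genes). At 12 h they were 3 of the 9 genes called higher (20.6% of all genes) and 3 lower (20%), where 40.5% of all genes were called, and 7 did not overlap between the groups (52% of all genes). With 9 genes and so many calls among all genes, these counts do not set the members apart. In WT cells 3 h against 0 h gave 2 of the 9 genes called higher (27.2% of all genes) and 5 lower (27.6%), where 54.8% of all genes were called, and 7 did not overlap between the groups (59.6% of all genes). At 8 h the counts in WT cells were 0 of the 9 genes called higher (28% of all genes) and 8 lower (28.2%), where 56.2% of all genes were called, and 7 did not overlap between the groups (56.4% of all genes). At 12 h they were 0 of the 9 genes called higher (27.1% of all genes) and 5 lower (25.9%), where 53% of all genes were called, and 5 did not overlap between the groups (55% of all genes). At 8 h ITGA4 was the only member not called in WT cells. The median log2 change of the 9 genes was -0.27, -0.54 and -0.46 at 3, 8 and 12 h in WT cells and -0.18, -0.33 and -0.11 in KLHL6-KO cells, against medians over all genes between -0.0080 and 0.0014. The same 3 libraries at 0 h serve all 3 later times of a genotype.

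ITGAL fell in both genotypes. In KLHL6-KO cells it was at 4749, 4536 and 4698 at 0 h, 4883, 4651 and 4704 at 3 h, 2745, 2764 and 2657 at 8 h and 1878, 1849.9 and 1714 at 12 h. In WT cells it was at 4441, 4362 and 4223 at 0 h, 4946, 5341 and 5218 at 3 h, 2429, 2586 and 2965 at 8 h and 2256, 2144 and 2320.3 at 12 h. In both genotypes all libraries at 8 and 12 h lay below all libraries at 0 and 3 h. At 12 h against 0 h the change was -1.36 ± 0.06 (adjusted p = 2.1e-19) in KLHL6-KO cells and -0.95 ± 0.06 (adjusted p = 2.6e-15) in WT cells. At 3 h ITGAL had first risen in WT cells (0.25 ± 0.06, adjusted p = 0.00044), whereas in KLHL6-KO cells it had not changed by the test (0.03 ± 0.06, adjusted p = 0.76).

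ITGB2 was lower than at 0 h at every later time in both genotypes, and lowest at 8 h. The change at 8 h was -1.14 ± 0.18 (adjusted p = 5.4e-06) in KLHL6-KO cells and -1.17 ± 0.18 (adjusted p = 1.3e-06) in WT cells. At 3 h the WT change (-0.44 ± 0.18, adjusted p = 0.038) was lost without WT 0 h replicate 1, the highest library (-0.27, adjusted p = 0.272), and without the filter on low values (adjusted p = 0.0896). ITGB7 was at 610.0 ± 29.7 at 12 h and 1086 ± 26.7 at 0 h in KLHL6-KO cells (-0.83 ± 0.06, adjusted p = 6.7e-13), and at 729 ± 60.3 at 12 h and 1046 ± 12.6 at 0 h in WT cells (-0.52 ± 0.06, adjusted p = 1.4e-08). At 3 h ITGB7 had fallen in KLHL6-KO cells (-0.28 ± 0.06, adjusted p = 0.00053) and was not called in WT cells (-0.04 ± 0.06, adjusted p = 0.58).

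ITGB1 and ITGA4 were called mostly in WT cells. ITGB1 fell in WT cells at 3 h (-0.43 ± 0.10, adjusted p = 0.0010), 8 h (-0.41 ± 0.10, adjusted p = 0.0016) and 12 h (-0.48 ± 0.10, adjusted p = 0.00035). In KLHL6-KO cells, which began lower, it was not called at any time (-0.18, -0.16 and -0.10 at 3, 8 and 12 h), and the genotype by time test did not call it either (adjusted p = 0.27). ITGA4 fell in WT cells at 3 h (-0.27 ± 0.08, adjusted p = 0.0051) and was not called at 8 or 12 h, and in KLHL6-KO cells it rose at 12 h (0.21 ± 0.08, adjusted p = 0.035), a call lost without the filter on low values and without any 1 of 4 libraries. The difference in its course was not called (adjusted p = 0.069). ICAM3 was lower at 3 and 8 h in KLHL6-KO cells (-0.26 and -0.32, adjusted p = 0.013 and 0.0025) and in WT cells (-0.32 and -0.54, adjusted p = 0.0014 and 1.3e-06), and was not called at 12 h in either. SELPLG was at 4.50 to 4.65 in WT cells at 8 h, the lowest of its groups, and this was its only call among all 23 comparisons (-1.41 ± 0.32, adjusted p = 0.00032).

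**Figure D2:**
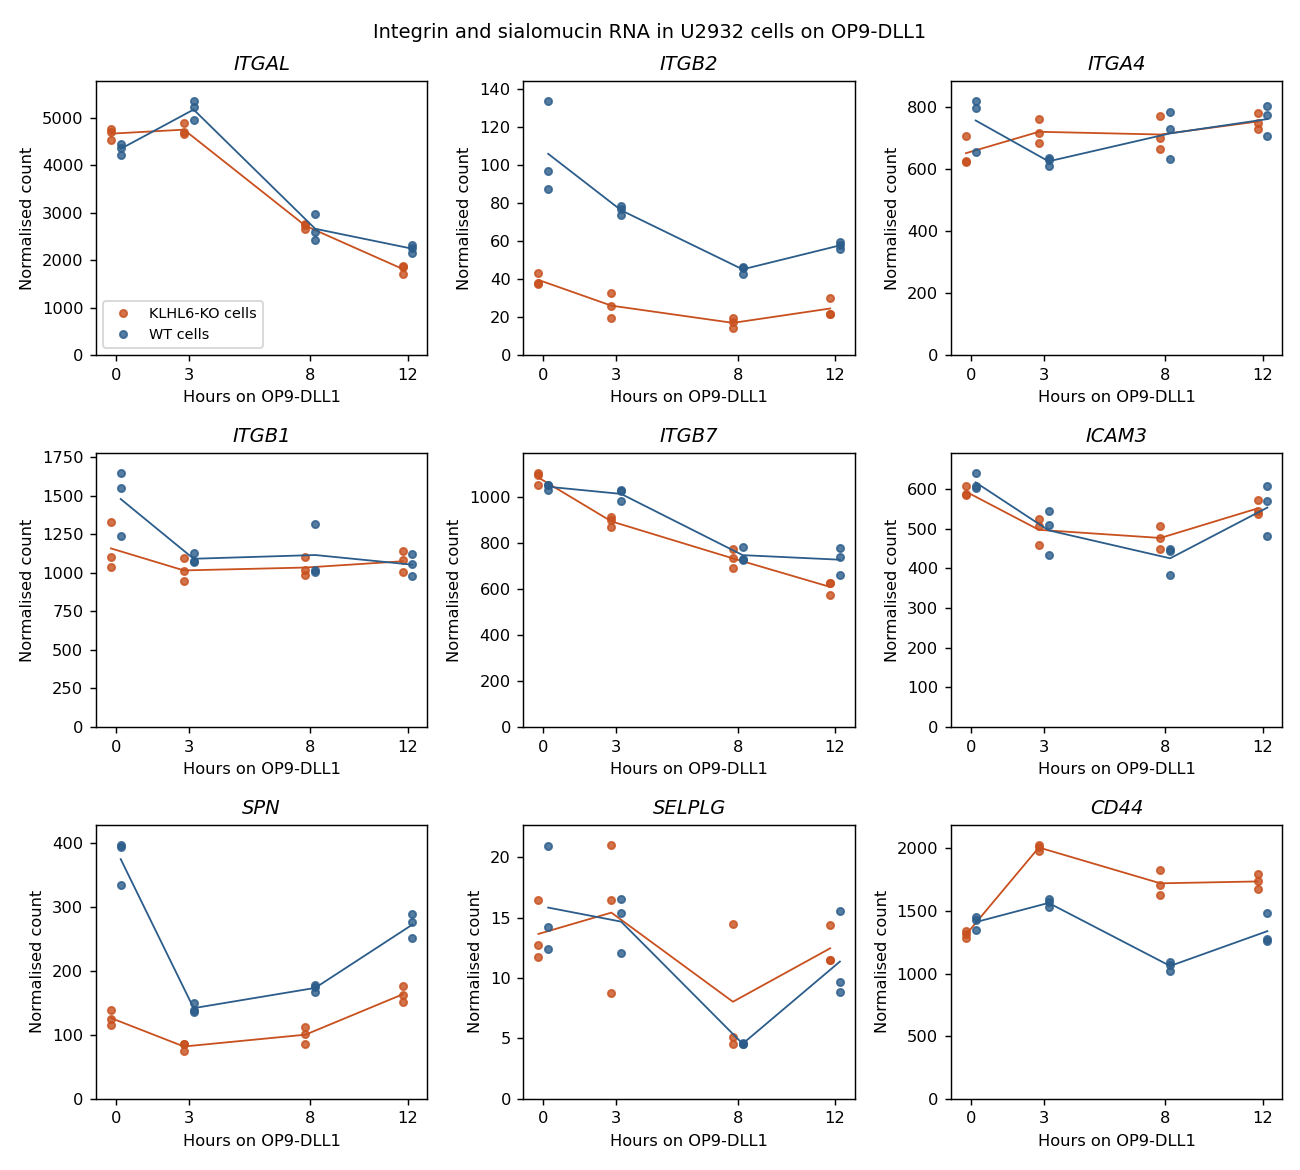
Normalised counts of each gene against hours on OP9-DLL1 (0, 3, 8 and 12 h), with 1 point per library and lines through the group means of KLHL6-KO and WT cells, n = 3 libraries a group. SPN and ITGB2 run lower in KLHL6-KO cells throughout, CD44 runs higher from 3 h on, and ITGAL drops after 3 h in both.

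Of the 9 genes 4 changed differently over time in the 2 genotypes (12.4% of all genes called by this test). CD44 differed with the smallest adjusted p, its genotype by time terms being 0.46, 0.80 and 0.48 (each ± 0.08) at 3, 8 and 12 h, with a mean of 0.58 ± 0.07 (adjusted p = 4.4e-07). In KLHL6-KO cells CD44 rose at 3 h (0.61 ± 0.06), 8 h (0.39 ± 0.06) and 12 h (0.40 ± 0.06), while in WT cells it rose less at 3 h (0.15 ± 0.06), fell at 8 h (-0.41 ± 0.06) and was not called at 12 h (-0.08 ± 0.06). The small WT rise at 3 h was no longer called once replicate 3 at 0 h was left out (0.12, adjusted p = 0.126), nor without replicate 2 or 3 at 3 h (adjusted p = 0.0737 and 0.0916). SPN had terms of 0.77, 0.77 and 0.82 (each ± 0.15), with a mean of 0.79 ± 0.12 (adjusted p = 0.00035). From its lower start SPN fell less in KLHL6-KO cells (-0.61 ± 0.11 at 3 h) than in WT cells (-1.39 ± 0.11), and at 12 h it was above its 0 h level in KLHL6-KO cells (0.37 ± 0.11, adjusted p = 0.0055) and below it in WT cells (-0.46 ± 0.11, adjusted p = 0.00050). ITGAL had a mean term of -0.23 ± 0.07 (adjusted p = 0.0030), and ITGB7 of -0.21 ± 0.07 (adjusted p = 0.046). The ITGB7 call was lost without the filter on low values (adjusted p = 0.151) and without any 1 of 20 libraries.

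Other genes of leukocyte adhesion were counted in the same fits, by lists of other integrin subunits, of proteins that activate integrins or tie them to actin, of counter-receptors, of other sialomucins with the enzymes that build their glycans, and of membrane linkers and sheddases. At 0 h 10 of 30 activation and linkage genes were lower in KLHL6-KO cells and 0 higher, with a median change of -0.07 against 0.00027 over all genes, of which 12.5% were called lower and 13.7% higher. Among these were the kinase PTK2B (516 ± 20.3 in KLHL6-KO cells and 739 ± 36.5 in WT cells, -0.52 ± 0.07, adjusted p = 1.1e-06) and the adaptors SKAP2 (-0.47 ± 0.07, adjusted p = 8.1e-06) and SKAP1 (-1.07 ± 0.16, adjusted p = 8.4e-06). Of 11 sialomucin and glycan genes 4 were lower and 0 higher, among them the sialyltransferase ST3GAL1 (-0.58 ± 0.10, adjusted p = 5e-05) and the sialomucin PODXL (-0.62 ± 0.13, adjusted p = 0.00066), and of 8 counter-receptors 4 were lower and 0 higher. Of 10 membrane linkers and sheddases 1 was higher, the gamma-secretase subunit NCSTN (0.23 ± 0.08, adjusted p = 0.026), and 0 lower, and of 8 other integrin subunits 0 were called in limma or DESeq2, with 1 at an unadjusted p under 0.05 and 1 called in edgeR. ICAM1, a ligand of LFA-1, was higher in KLHL6-KO cells from 3 h on: 845 ± 28.1 in KLHL6-KO cells against 628 ± 45.1 in WT cells at 3 h (0.43 ± 0.06, adjusted p = 6.4e-06), and 1473 ± 78.2 in KLHL6-KO cells against 1091 ± 20.3 in WT cells at 12 h (0.43 ± 0.06, adjusted p = 1.2e-05). CD58, a ligand of CD2, was lower at 0 h (-0.41 ± 0.12) and higher at 3 h (0.39 ± 0.12) and 12 h (0.47 ± 0.12), and RDX, a linker that binds CD44 to actin, was higher at 12 h (0.33 ± 0.07, adjusted p = 0.0027).

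Against 0 h, most called genes of integrin activation and linkage were lower. Of 30 such genes 3 were higher and 13 lower in KLHL6-KO cells at 12 h, and 5 and 18 in WT cells, with median changes of -0.16 and -0.26. Over all genes 20.6% were called higher and 20% lower in KLHL6-KO cells, and 27.1% and 25.9% in WT cells. ILK, which binds integrin tails, was at 475 ± 8.21 at 8 h and 786 ± 12.6 at 0 h in KLHL6-KO cells (-0.72 ± 0.06, adjusted p = 6.4e-11). In WT cells it was at 521 ± 40.5 at 8 h and 818 ± 46.3 at 0 h (-0.65 ± 0.06, adjusted p = 2.2e-10). Of 8 other integrin subunits 2 were higher and 2 lower at 12 h in KLHL6-KO cells, and 2 and 3 in WT cells. ITGA3, the alpha chain of a laminin receptor, fell in both (-0.75 ± 0.11, adjusted p = 2.3e-06 in KLHL6-KO cells and -0.85 ± 0.11, adjusted p = 1.3e-07 in WT cells).

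The genes whose levels ran most like those of a member over the 24 coculture libraries were found by Pearson's correlation on the log2 scale. These libraries share groups and times, so the values are descriptions. For ITGAL they were FAM167A (0.969), RPS6KA2 (0.966) and PYCR1 (0.964), and for ITGB2 JUP (0.957), MYO1G (0.955) and GDPD5 (0.923). For SPN they were UNC119 (0.938), CTSH (0.922) and LRRC32 (0.913), and for CD44 SERPINB9 (0.870), NUDT4 (0.867) and IL12RB2 (0.859). ITGB7 ran with SULF2 (0.966), SLC5A5 (0.966) and GRN (0.965), and ITGB1 with HOOK3 (0.961), IARS2 (0.932) and PICALM (0.929). ITGA4 ran with GAB1 (0.893), DYRK3 (0.866) and FYCO1 (0.832), and ICAM3 with HAGH (0.890), GPT2 (0.875) and HSD17B8 (0.866). SELPLG, the lowest in level, had the weakest likeness, to AP3M2 (0.796), RRBP1 (0.778) and SUN2 (0.759). Among the members themselves ITGAL and ITGB7 were most alike (0.932), then ITGB2 and SPN (0.746), and SPN and CD44 were least alike (-0.517).

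In the tumours labelled KLHL6-KO, SPN was the member that differed most from those labelled WT. They held more SPN and less ITGB7 and CD44 RNA. ITGAL was higher in tumours labelled NOTCH2-KO and DKO, with ITGB1 also higher in NOTCH2-KO and CD44 lower in DKO. SPN was not called for these 2 labels. The 3 comparisons share the WT libraries. The label KLHL6-KO gave 1 of the 9 genes called higher (8.44% of all genes) and 2 lower (9.02%), where 17.5% of all genes were called, and 5 did not overlap between the groups (35.5% of all genes). For NOTCH2-KO there were 2 of the 9 genes called higher (16.2% of all genes) and 0 lower (14.5%), where 30.7% of all genes were called, and 3 did not overlap between the groups (45.9% of all genes). For DKO there were 1 of the 9 genes called higher (5.5% of all genes) and 1 lower (3.86%), where 9.35% of all genes were called, and 4 did not overlap between the groups (25.8% of all genes). The median log2 change of the 9 genes was 0.04, 0.09 and -0.05 for these labels, in that order, against medians over all genes between -0.0041 and 0.0011.

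SPN was at 207, 229 and 214 in tumours labelled KLHL6-KO and 140.3, 144 and 189.9 in tumours labelled DKO. It was at 111, 99.7 and 128 in tumours labelled NOTCH2-KO, against 73.5, 135 and 123 in those labelled WT. All KLHL6-KO and all DKO libraries were above all WT libraries, of which replicate 1 was the lowest, and the NOTCH2-KO libraries lay within the WT range. The change was 1.00 ± 0.19 (adjusted p = 0.0025) for KLHL6-KO (0.74, adjusted p = 0.00193 without WT replicate 1), 0.54 ± 0.19 (adjusted p = 0.087) for DKO (0.27, adjusted p = 0.257 without it) and 0.07 ± 0.19 (adjusted p = 0.83) for NOTCH2-KO. The DKO difference was called without WT replicate 2 (0.71, adjusted p = 0.045). The direction given here is that of the labels, since the tumours labelled KLHL6-KO carried more KLHL6 RNA.

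**Figure D3:**
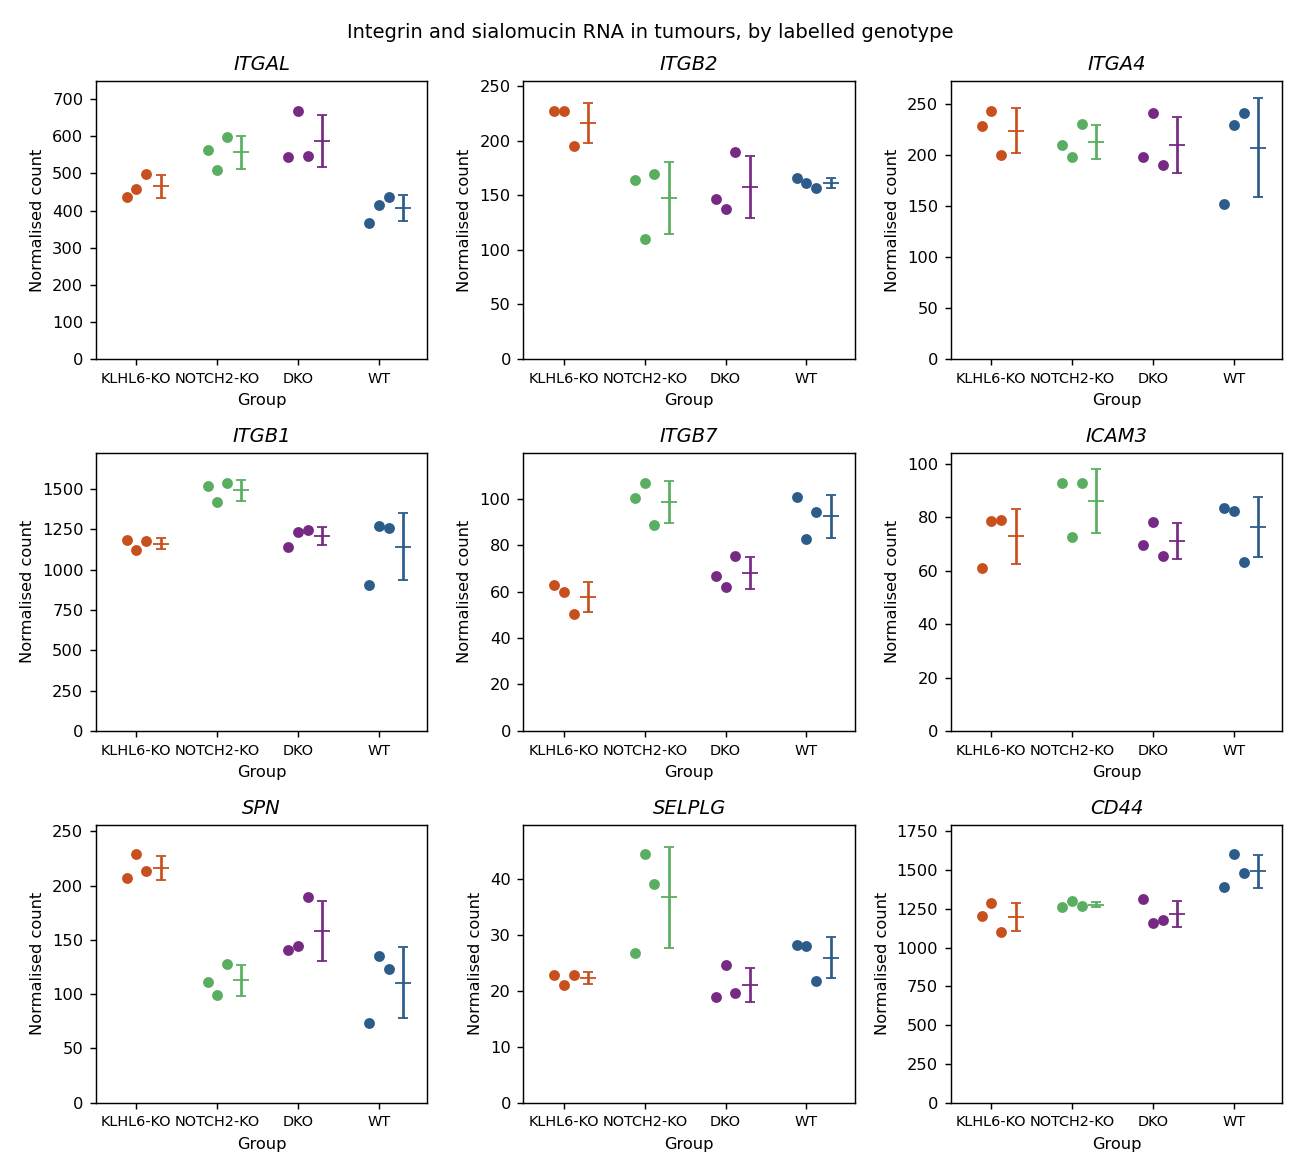
Normalised counts of each gene in tumours labelled KLHL6-KO, NOTCH2-KO, DKO and WT, with 1 point per library and the mean ± SD (n = 3) beside the points. SPN is highest and ITGB7 lowest in tumours labelled KLHL6-KO, and CD44 is highest in those labelled WT.

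Of the LFA-1 chains, ITGAL was at 564, 509 and 597 in tumours labelled NOTCH2-KO and 545, 669 and 547 in those labelled DKO. It was at 438, 459 and 499 in tumours labelled KLHL6-KO, against 368, 414 and 437 in those labelled WT. Every library of the 3 knockout labels was above every WT library. The change was 0.45 ± 0.11 (adjusted p = 0.0047) for NOTCH2-KO (0.38, adjusted p = 0.00778 without WT replicate 1), 0.53 ± 0.11 (adjusted p = 0.0075) for DKO (0.46, adjusted p = 0.00748 without it) and 0.20 ± 0.11 (adjusted p = 0.22) for KLHL6-KO, not called. With the libraries of the 2 groups alone the DKO call was lost (adjusted p = 0.0647). ITGB2 was at 227, 227 and 195 in tumours labelled KLHL6-KO, against 166, 161 and 157 in those labelled WT, without overlap but not called (0.42 ± 0.16, adjusted p = 0.090).

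ITGB7 was at 62.8, 59.9 and 50.2 in tumours labelled KLHL6-KO, against 101, 82.5 and 94.1 in those labelled WT. The groups did not overlap, and the change was -0.67 ± 0.16 (adjusted p = 0.010). Without WT replicate 1 it was -0.60 (adjusted p = 0.0207), and the call was lost without KLHL6-KO replicate 3 (-0.57, adjusted p = 0.0576). In tumours labelled DKO it was at 68.0 ± 6.73 (-0.43 ± 0.16, adjusted p = 0.096). ITGB1 was at 1518, 1419 and 1539.9 in tumours labelled NOTCH2-KO, against 903, 1271 and 1256 in those labelled WT, above all of them (0.40 ± 0.11, adjusted p = 0.011, and 0.24, adjusted p = 0.0169 without WT replicate 1). With those groups alone the adjusted p was 0.0546. The stroma markers of the files (8 of 17) summed to 438.5 to 528.7 in tumours labelled NOTCH2-KO, against 327.6 to 349.4 in those labelled WT, and their part in the ITGB1 level was not tested. Macrophage markers (6 of 10) summed to 208.5 to 324.0 in tumours labelled KLHL6-KO, 279.1 to 311.9 in NOTCH2-KO and 190.1 to 284.5 in DKO, against 158.8 to 242.9 in WT, and T and NK cell markers (3 of 8) to 50.6 to 57.7 in KLHL6-KO, 106.3 to 117.4 in NOTCH2-KO and 172.1 to 226.0 in DKO, against 122.2 to 147.0 in WT. The 6 B-cell markers summed to 45850 to 48460 in tumours labelled KLHL6-KO, 54430 to 65140 in NOTCH2-KO and 45610 to 61430 in DKO, against 37770 to 47770 in WT, and 4 of 6 were called higher and 0 lower for NOTCH2-KO. The part of these lists in the members' levels was not tested. The hosts have no T or NK cells of their own, so the T and NK cell sums are not read as an amount of such cells. ITGA4, ICAM3 and SELPLG were not called in any of the 3 comparisons with WT.

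CD44 was at 1203, 1285 and 1103 in tumours labelled KLHL6-KO and 1315, 1160.3 and 1179 in those labelled DKO. It was at 1264, 1298 and 1271 in tumours labelled NOTCH2-KO, against 1392, 1602 and 1483 in those labelled WT. All 9 libraries of the knockout labels were below all 3 WT libraries. The change was -0.32 ± 0.09 (adjusted p = 0.018) for KLHL6-KO, -0.29 ± 0.09 (adjusted p = 0.043) for DKO and -0.22 ± 0.09 (adjusted p = 0.061) for NOTCH2-KO. Without WT replicate 1, the lowest WT library, these were -0.37 (adjusted p = 0.00345), -0.34 (adjusted p = 0.01) and -0.27 (adjusted p = 0.0153). The KLHL6-KO call was lost without WT replicate 2 (adjusted p = 0.0738) or KLHL6-KO replicate 1 or 3 (adjusted p = 0.0532 and 0.102), and the DKO call without any 1 of 8 libraries.

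Among DKO against each single-knockout label and the interaction of the labels, no member was called with all libraries, and KLHL6-KO against NOTCH2-KO was not fitted. DKO against KLHL6-KO gave 0 calls (10.8% of all genes called) with 3 members at an unadjusted p under 0.05 in limma, 0 calls in edgeR and 2 in DESeq2. DKO against NOTCH2-KO gave 0 calls (6.81% called) with 4 at an unadjusted p under 0.05, and 0 in edgeR and in DESeq2. The interaction of the KLHL6 and NOTCH2 labels gave 0 calls (10.8% called) with 1 at an unadjusted p under 0.05, and 0 in both other tools. Leaving out WT replicate 1, which is in neither group of these pairs, moved 7 of these differences past the threshold. For DKO against KLHL6-KO they were ITGAL (0.33, adjusted p = 0.0159), ITGB2 (-0.46, adjusted p = 0.0391) and SPN (-0.46, adjusted p = 0.02). For DKO against NOTCH2-KO they were ITGB1 (-0.31, adjusted p = 0.0035), ITGB7 (-0.52, adjusted p = 0.0307), SPN (0.47, adjusted p = 0.0232) and SELPLG (-0.73, adjusted p = 0.0472). In each of these 7 the 3 libraries of one label lay wholly above or below those of the other, as 32.6% and 29.6% of all genes did in these pairs.

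In the wider adhesion lists, 11 of 31 activation and linkage genes were higher and 4 lower in tumours labelled NOTCH2-KO than in those labelled WT (median change 0.14, against -0.00065 over all genes). Over all genes 16.2% were higher and 14.5% lower for NOTCH2-KO, 8.44% and 9.02% for KLHL6-KO, and 5.5% and 3.86% for DKO. In the activation list APBB1IP, which links RAP1 to talin, was at 4247 ± 84.8 in these tumours, against 2097 ± 29.1 in those labelled WT (1.02 ± 0.10, adjusted p = 2.9e-06), and SKAP2 was also higher (0.96 ± 0.11, adjusted p = 1.2e-05). The counts were 1 higher and 3 lower for the label KLHL6-KO, where the kinase PTK2 was at 34.6 ± 6.23 in KLHL6-KO, against 186 ± 12.4 in WT (-2.37 ± 0.15, adjusted p = 4.3e-08), and 3 and 1 for DKO. Of 10 other integrin subunits 1 was higher and 3 lower for KLHL6-KO, 3 and 3 for NOTCH2-KO and 2 and 1 for DKO. The list values were not refitted without WT replicate 1.

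Tumours expressing the NOTCH2 variants held more SPN and ITGB2 RNA than those expressing NOTCH2(WT), whichever variant it was. Q2140* tumours also held more of both chains of the gut-homing integrin, ITGA4 and ITGB7, and S2156A and R2400* tumours more ICAM3. S2156A against NOTCH2(WT) gave 4 of the 9 genes called higher (7.14% of all genes) and 0 lower (8.06%), where 15.2% of all genes were called, and 6 did not overlap between the groups (37.6% of all genes). R2400* gave 4 of the 9 genes called higher (3.73% of all genes) and 1 lower (4.32%), where 8.04% of all genes were called, and 5 did not overlap between the groups (25.9% of all genes). Q2140* gave 5 of the 9 genes called higher (9.72% of all genes) and 0 lower (10.8%), where 20.5% of all genes were called, and 5 did not overlap between the groups (35.6% of all genes). The median log2 change of the 9 genes was 0.12, 0.20 and 0.35 in this order, against medians over all genes between -0.0039 and 0.00031. The 3 comparisons share the NOTCH2(WT) libraries. NOTCH2 RNA itself was at 16649.9 ± 1050.4 in S2156A tumours, 26466 ± 2748 in R2400* tumours and 59619 ± 4181 in Q2140* tumours, against 15858 ± 567 in NOTCH2(WT) tumours, and it was not called in S2156A (0.07 ± 0.07, adjusted p = 0.59). R2400* (0.73 ± 0.07, adjusted p = 7.8e-06) and Q2140* tumours (1.91 ± 0.07, adjusted p = 2.1e-10) thus differ from NOTCH2(WT) tumours in the amount of NOTCH2 RNA as well as in its sequence, and these cannot be told apart.

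SPN was at 614, 506 and 483 in R2400* tumours, 477, 442 and 434 in S2156A tumours and 253, 312 and 292 in Q2140* tumours, against 183, 249.8 and 184 in NOTCH2(WT) tumours. Each of the 4 groups was separate from the next in this order. The change was 1.38 ± 0.11 (adjusted p = 2.1e-07) for R2400*, 1.14 ± 0.11 (adjusted p = 1.9e-07) for S2156A and 0.48 ± 0.11 (adjusted p = 0.0037) for Q2140*. SPN was lower in Q2140* than in R2400* tumours (-0.89 ± 0.11, adjusted p = 8.1e-06) and higher in S2156A than in Q2140* tumours (0.66 ± 0.11, adjusted p = 0.00011), while S2156A against R2400* was not called (-0.24 ± 0.11, adjusted p = 0.26).

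**Figure D4:**
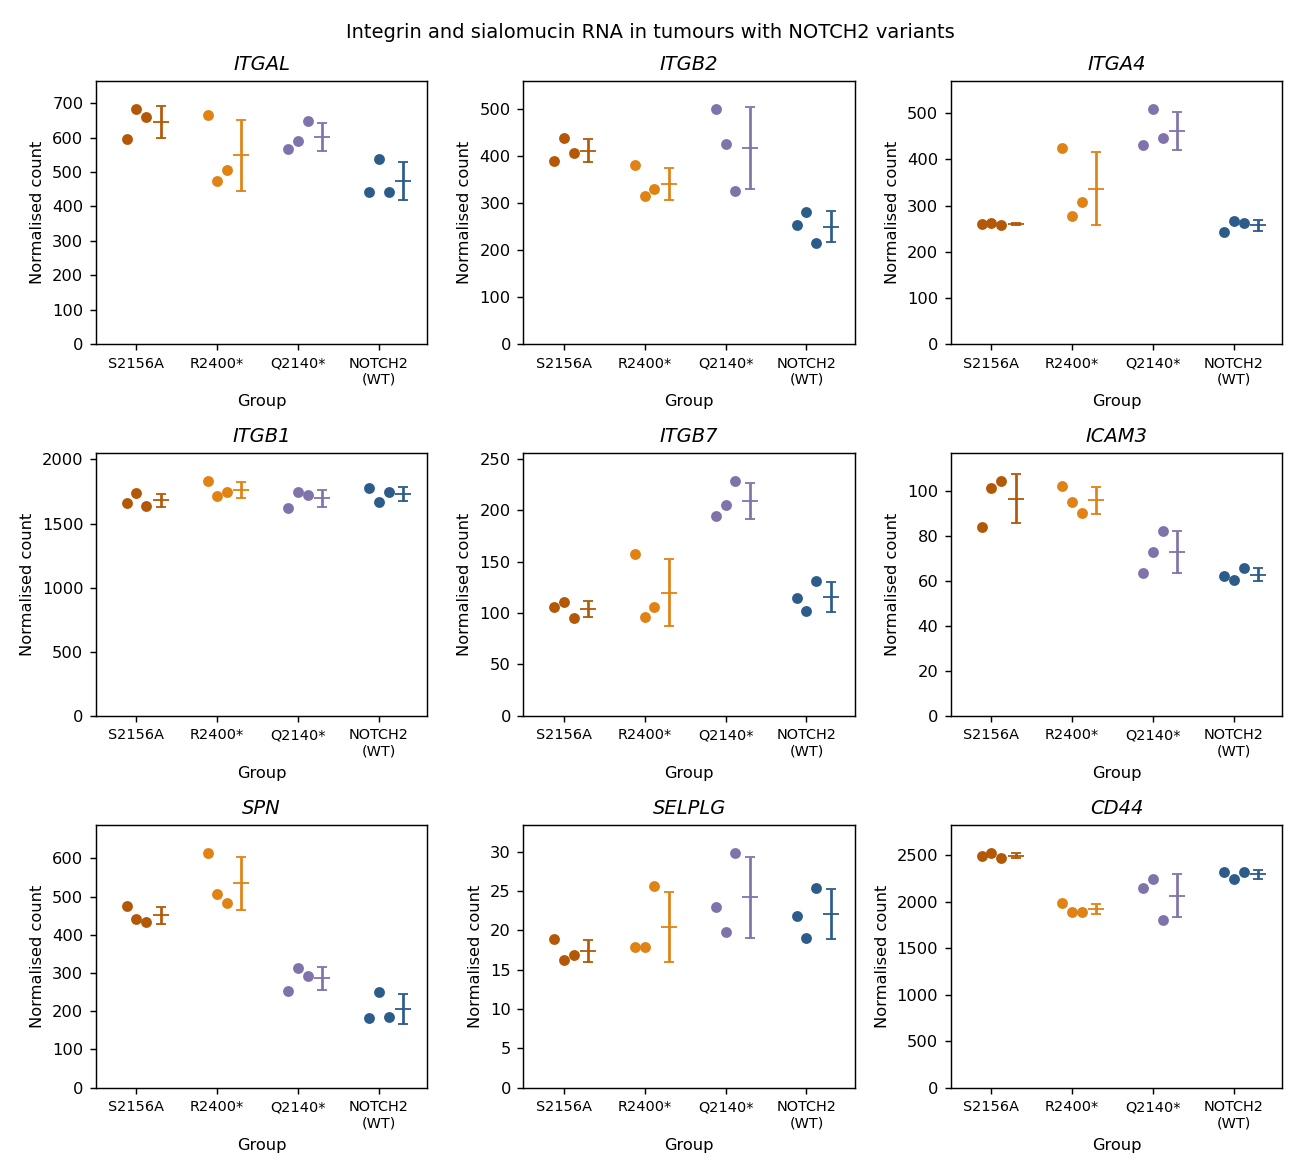
Normalised counts of each gene in tumours expressing NOTCH2(S2156A), NOTCH2(R2400*), NOTCH2(Q2140*) or NOTCH2(WT), with 1 point per library and the mean ± SD (n = 3) beside the points. SPN and ITGB2 are above NOTCH2(WT) in all 3 variants, ITGA4 and ITGB7 are highest in Q2140*, and the ITGB1 points overlap in all 4 groups.

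ITGB2 was at 389, 439 and 407 in S2156A tumours, 380.3, 315 and 329.8 in R2400* tumours and 500.2, 426 and 326 in Q2140* tumours, against 254, 281 and 215 in NOTCH2(WT) tumours. No library of a variant fell to the NOTCH2(WT) range. The change was 0.72 ± 0.13 (adjusted p = 0.00060) for S2156A, 0.45 ± 0.13 (adjusted p = 0.036) for R2400* and 0.72 ± 0.13 (adjusted p = 0.00059) for Q2140*. The R2400* call was lost without any 1 of 5 libraries, among them NOTCH2(WT) replicate 3, the lowest (0.35, adjusted p = 0.167). ITGAL, its partner, was at 594, 682 and 659.8 in S2156A tumours and 567, 589.5 and 647 in Q2140* tumours, against 442, 537 and 442 in NOTCH2(WT) tumours. It rose in S2156A (0.45 ± 0.11, adjusted p = 0.0077) and in Q2140* (0.35 ± 0.11, adjusted p = 0.030), was not called in R2400* (0.20 ± 0.11, adjusted p = 0.32), and lost the Q2140* call without NOTCH2(WT) replicate 1 or 3 (adjusted p = 0.119 and 0.118) or Q2140* replicate 2 or 3 (adjusted p = 0.0641 and 0.123).

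ITGA4 was at 431, 509 and 446 in Q2140* tumours, against 243, 265 and 261 in NOTCH2(WT) tumours. ITGB7 was at 194, 205 and 228 in Q2140* tumours, against 115, 102 and 131 in NOTCH2(WT) tumours. Both genes were above the NOTCH2(WT) range in all 3 Q2140* libraries, by 0.84 ± 0.11 (adjusted p = 8.1e-06) for ITGA4 and 0.85 ± 0.15 (adjusted p = 0.00013) for ITGB7. ITGA4 was also higher in Q2140* than in R2400* tumours (0.48 ± 0.11, adjusted p = 0.0039), as was ITGB7 (0.83 ± 0.15, adjusted p = 0.00022). In S2156A tumours both were lower than in Q2140* tumours (-0.82 ± 0.11, adjusted p = 4.3e-06 for ITGA4 and -0.99 ± 0.15, adjusted p = 7.8e-06 for ITGB7) and not called against NOTCH2(WT). The ITGA4 call in R2400* (0.36 ± 0.11, adjusted p = 0.043) rested on replicate 1, at 425, where replicates 2 and 3 were at 277 and 308, and was lost without it (0.18, adjusted p = 0.326). ZNF740, which overlaps ITGB7, was at 1244 ± 21.9 in Q2140* tumours and 1226 ± 51.5 in NOTCH2(WT) tumours (0.02 ± 0.05, adjusted p = 0.83), not called where ITGB7 was. Its part in the ITGB7 value was not tested here either. Beyond this and the 12 h genotype difference in coculture, ZNF740 is not given beside ITGB7 calls.

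ITGB1, the other partner of ITGA4, was at 1698 ± 66.1 in Q2140* tumours and 1732 ± 55.0 in NOTCH2(WT) tumours (-0.03 ± 0.05, adjusted p = 0.76), and was not called between any 2 groups of this experiment. The ratio of ITGB1 to ITGB7 per kb was 6.07 ± 0.381 in Q2140* tumours, 12.1 ± 0.693 in S2156A tumours and 11.4 ± 2.41 in R2400* tumours, against 11.2 ± 1.15 in NOTCH2(WT) tumours. The ratio of ITGA4 to ITGB7 was 1.26 ± 0.148 in Q2140* tumours and 1.27 ± 0.18 in NOTCH2(WT) tumours.

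**Figure D5:**
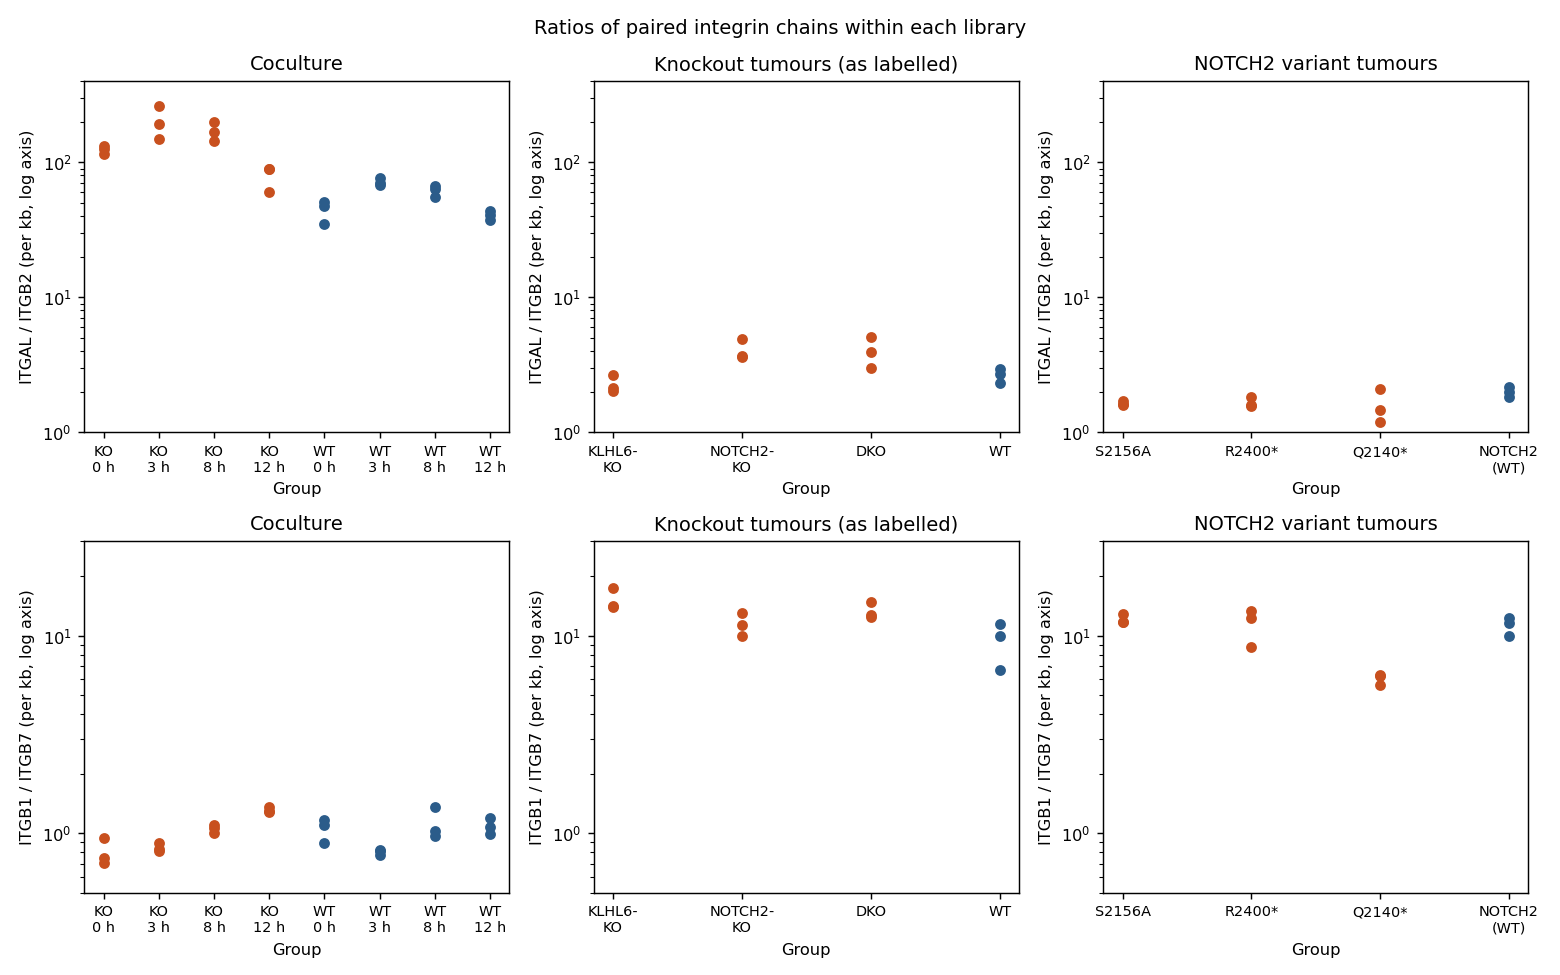
Ratio of ITGAL to ITGB2 and of ITGB1 to ITGB7, both per kb of exon, on log axes, with 1 point per library in each group of the 3 experiments. The ITGAL to ITGB2 ratio is higher in KLHL6-KO than in WT cells of the coculture at each time, and the ITGB1 to ITGB7 ratio is lowest in Q2140* among the mutant tumours.

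ICAM3 was at 84.2, 101 and 105 in S2156A tumours and 102, 95.2 and 90.3 in R2400* tumours, against 62.3, 60.5 and 65.8 in NOTCH2(WT) tumours. Neither group overlapped with NOTCH2(WT), and the change was 0.60 ± 0.14 (adjusted p = 0.0038) for S2156A and 0.59 ± 0.14 (adjusted p = 0.0078) for R2400*. In Q2140* tumours it was at 73.0 ± 9.29 and not called (0.20 ± 0.14, adjusted p = 0.35). ICAM3 was higher in S2156A than in Q2140* tumours (0.40 ± 0.14, adjusted p = 0.035), a call lost without any 1 of 4 libraries, without the filter on low values (adjusted p = 0.0955) and in DESeq2 (adjusted p = 0.0948). SELPLG lay between 16.2 and 29.9 in the 12 libraries and was not called in any comparison of variants.

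CD44 fell in R2400* tumours and in no other variant by the test. It was at 1986, 1889 and 1888 in R2400* tumours, against 2319.7, 2241 and 2325 in NOTCH2(WT) tumours, all 3 below (-0.26 ± 0.06, adjusted p = 0.0069). In S2156A tumours it was at 2489.8, 2527 and 2473, all above NOTCH2(WT) but not called (0.12 ± 0.06, adjusted p = 0.20), and in Q2140* tumours at 2143, 2249 and 1805 (-0.16 ± 0.06, adjusted p = 0.067). The Q2140* difference was called without Q2140* replicate 2 (-0.22, adjusted p = 0.0137) and, just at the threshold, without replicate 1. Between variants CD44 was higher in S2156A than in R2400* (0.38 ± 0.06, adjusted p = 0.00037) and than in Q2140* tumours (0.28 ± 0.06, adjusted p = 0.00084).

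Among pairs of variants, S2156A against R2400* gave 1 of the 9 genes called higher (1.93% of all genes) and 0 lower (2.83%), where 4.76% of all genes were called, and 4 did not overlap between the groups (24.5% of all genes). S2156A against Q2140* gave 3 of the 9 genes called higher (15.2% of all genes) and 2 lower (15.4%), where 30.7% of all genes were called, and 6 did not overlap between the groups (43% of all genes). Q2140* against R2400* gave 2 of the 9 genes called higher (9.48% of all genes) and 1 lower (9.46%), where 18.9% of all genes were called, and 4 did not overlap between the groups (29.5% of all genes). The genes called are those named above. Without Q2140* replicate 3, 3 more genes were called in the last of these, ITGB2 (0.44, adjusted p = 0.00359), ICAM3 (-0.48, adjusted p = 0.03) and CD44 (0.19, adjusted p = 0.00582).

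Marker sums varied between the mutant tumours. The hosts have no T or NK cells of their own, so the T and NK cell sums are not read as an amount of such cells. Their source was not tested. The 7 T and NK cell markers in these files (of 8) summed to 347.7 to 394.0 in Q2140* tumours, 84.5 to 88.9 in S2156A tumours and 125.4 to 158.8 in R2400* tumours, against 162.7 to 186.7 in NOTCH2(WT) tumours. Stroma markers (17 of 17) summed to 618.7 to 1053 in Q2140* tumours, 597.2 to 684.1 in S2156A tumours and 441.3 to 594.7 in R2400* tumours, against 497.8 to 605.7 in NOTCH2(WT) tumours. Macrophage markers (9 of 10) summed to 326.9 to 565.7 in Q2140* tumours, 366.3 to 469.2 in S2156A tumours and 302.0 to 409.9 in R2400* tumours, against 307.6 to 356.3 in NOTCH2(WT) tumours. CD163 was at 0 in all S2156A and R2400* libraries, KLRD1 in all S2156A and NOTCH2(WT) libraries and CD3G in all R2400* libraries. The 6 B-cell markers summed to 75610 to 80700 in Q2140* tumours, 62380 to 64390 in S2156A tumours and 60220 to 70420 in R2400* tumours, against 60060 to 62560 in NOTCH2(WT) tumours, and 5 of 6 were called higher and 0 lower in Q2140*. The part of these lists in the members' levels was not tested.

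In Q2140* tumours, of 11 other integrin subunits 5 were higher and 2 lower than in NOTCH2(WT) tumours (9.72% and 10.8% of all genes), led by ITGB4, a laminin receptor chain (167 ± 32.8 in Q2140* against 67.4 ± 6.73 in NOTCH2(WT) tumours, 1.27 ± 0.17, adjusted p = 3.5e-06), and ITGA2, a collagen receptor chain (1.15 ± 0.20, adjusted p = 0.00013). Of 33 activation and linkage genes 10 were higher and 2 lower, among them the actin linker PARVG (177 ± 41.6 in Q2140* against 23.7 ± 5.66 in NOTCH2(WT) tumours, 2.79 ± 0.30, adjusted p = 4.2e-06) and PTK2 (1.26 ± 0.19, adjusted p = 3.1e-05). The sheddase ADAM8 was higher (0.73 ± 0.12, adjusted p = 0.00010), and ICAM1 was lower (-0.31 ± 0.07, adjusted p = 0.0012). In S2156A tumours 2 integrin subunits were higher and 1 lower, and 7 activation and linkage genes were higher and 7 lower (7.14% and 8.06% of all genes), with RASGRP2, which switches on RAP1, at 26.2 ± 2.96 in S2156A, against 64.5 ± 3.16 in NOTCH2(WT) tumours (-1.24 ± 0.19, adjusted p = 2e-05). In R2400* tumours the counts were 2 and 0 integrin subunits and 4 and 2 activation and linkage genes (3.73% and 4.32% of all genes).

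Over the 23 comparisons SPN was called most often, in 17, followed by CD44 in 14, ITGB2 in 13 and ITGAL and ITGB7 in 11 each. ICAM3 and ITGA4 were called in 7 each, ITGB1 in 5 and SELPLG in 1. Many of these comparisons share libraries, so the counts describe how often each gene moved and are not independent.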

How the data were processed

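RNA was poly(A)-selected and sequenced with a directional kit, per the labels' protocols. STAR, SAMtools, DESeq2 and the GRCh38 build are named in the submitters' processing notes, while the sources used here do not give their versions, the counting tool, its strand setting or the annotation. The deposited signal values are gene counts that the authors scaled by size factors: in every library the values were whole multiples of 1 step, so reads could be recovered. Rows that name no gene were left out (0, 17 and 27 in the coculture, knockout and mutant experiments, at most 0.252% of reads).

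Groups were taken from the labels, which call replicates biological. The 9 members, the other lists and the markers were chosen with earlier results of these data known. Each experiment was fitted alone in limma 3.58.1 (R 4.3.3, trend and robust) on log2(value + 2) with 1 coefficient per group, all its libraries sharing 1 estimate of spread, for genes at 10 or more in at least 3 libraries (15032, 14005 and 15354 genes). A fold change on this scale understates the change of low genes. The genotype by time test was an F test of the 3 terms, and the mean term is their average. Alternatives were pseudocounts of 1 and 8, no filter, TMM scaling, edgeR 4.0.16 quasi-likelihood and DESeq2 1.42.0 on the recovered reads, the groups compared only, a replicate block, and each library left out. The script was tested on simulated data. Named besides the members were KLHL6 and NOTCH2, of each list at most the 3 called genes of smallest adjusted p per comparison, and for each member the 3 genes of highest Pearson correlation with a mean of at least 50. ZNF740 was added for its overlap with ITGB7 after values had been seen. Lengths per kb are those of merged GENCODE 29 exons. Some genes are not reported here.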

Additional observations from a re-analysis of the deposited data

Results flagged for a closer look

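The course over time on OP9-DLL1 differed between KLHL6-KO and WT cells, by the test of the difference itself, for 4 members and 3 counter-receptors. The mean genotype by time term, on the log2 scale from limma, was 0.58 for CD44 (adjusted p = 4.4e-07), 0.79 for SPN (adjusted p = 0.00035), -0.23 for ITGAL (adjusted p = 0.0030) and -0.21 for ITGB7 (adjusted p = 0.046). It was 0.52 for ICAM1 (adjusted p = 1.3e-05), 0.78 for CD58 (adjusted p = 0.00098) and 0.39 for ICAM4 (adjusted p = 0.035), so the rise against 0 h was larger in KLHL6-KO cells or the fall smaller.

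Several members differed in opposite directions, at some or all times, between the KLHL6 genotypes of the coculture and the tumours labelled KLHL6-KO and WT, every library of one group lying above or below every library of the other in both. Of all genes, 37.8%, 30.3%, 19.7% and 18.7% did not overlap between the genotypes at 0, 3, 8 and 12 h in coculture. In the tumours 35.5% did not. The share of all genes that did so in opposite directions was not counted. The difference between the 2 experiments was not tested, and they were normalised separately. Tumours labelled KLHL6-KO also held more KLHL6 RNA than those labelled WT. ITGB2 changed by -1.36, -1.51, -1.32 and -1.18 at 0, 3, 8 and 12 h in coculture, against 0.42 in the tumours, where it was not called. SPN changed by -1.55, -0.78, -0.79 and -0.73 at these times, against 1.00 in the tumours. CD44 changed by 0.36, 0.70 and 0.38 at 3, 8 and 12 h, against -0.32 in the tumours, while its uncalled 0 h change of -0.11 had the direction of the tumours. ITGAL changed by -0.12 and -0.30 at 3 and 12 h, against 0.20 in the tumours, with only the 12 h change called of these, while its uncalled changes of 0.10 at 0 h and 0.04 at 8 h had the direction of the tumours. ITGB7 changed by 0.05 at 0 h, not called, against -0.67 in the tumours. At 3, 8 and 12 h it changed by -0.18, -0.03 and -0.25, in the direction of the tumours, with the 12 h change called.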

How the results depend on the processing

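Over 207 member results and 5307 values under the alternatives, 5145 kept their side of the threshold, 114 lost and 48 gained a call. Of the called values 0 changed sign, and 77 uncalled values did. The number of members called moved by more than 1.5 times in few places. With the libraries of the 2 groups alone, it was 5 for KLHL6-KO against WT cells at 3 h (3 with all libraries). In the knockout tumours it was then 1 for NOTCH2-KO against WT (2 with all), 0 for DKO against WT (2), 3 for DKO against KLHL6-KO (0) and 1 for DKO against NOTCH2-KO (0). In edgeR DKO against WT gave 1, and in DESeq2 DKO against KLHL6-KO gave 2. S2156A against R2400* gave 2 without the filter on low values and 2 in DESeq2, and 1 otherwise. The shares of all genes called under the alternatives, leaving out 1 library included, are not given here. A shift in the members is therefore not set apart from a shift in all genes. The cause of these shifts was not tested. The fits on groups alone differ from the main fits both in having fewer libraries and in their estimate of spread.

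Leaving out 1 library at a time gave 2 to 4 calls for KLHL6-KO against WT cells at 0 h, 1 to 4 for tumours labelled KLHL6-KO and 1 to 2 for DKO against WT. It gave 0 to 3 for DKO against KLHL6-KO and 0 to 4 for DKO against NOTCH2-KO. In the mutant tumours it gave 3 to 5 for R2400* against NOTCH2(WT), 1 to 2 for S2156A against R2400* and 3 to 6 for Q2140* against R2400*.

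The main fits did not pair libraries by replicate number, and in no comparison did every same-numbered pair correlate above 0.1 in deviations from group means. In 3 comparisons, however, all same-numbered pairs exceeded all differently numbered ones. For KLHL6-KO against WT cells they were at 0.046 to 0.171 against at most 0.0069 at 0 h. At 12 h they were at 0.061 to 0.159 against at most 0.038. For DKO against WT tumours they were at 0.030 to 0.112 against at most 0.017. The labels do not say what a replicate number shares. With the replicate block, 5 members were called for KLHL6-KO against WT cells at 3 h and 1 for DKO against WT tumours. SELPLG, at 4.50 to 44.4 normalised counts in all libraries, is the member whose low counts most limit what can be seen. Others were low in places. ITGB2 was at 14.5 to 32.9 in KLHL6-KO cells at 3, 8 and 12 h, and DKO replicate 3 held 20 reads of ICAM3 and 23 of ITGB7.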
